A study of Mus musculus with 21 samples.

Results

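The serum-responsive immediate early genes examined here were the AP-1 genes Fos, Fosb, Fosl1, Fosl2, Jun, Junb and Jund, together with Egr1, Atf3 and Ier2. The 10 genes were taken by name from a table of 49943 mouse genes on the autosomes, X and Y, and each was represented by the CUT&RUN peaks lying within 1 kb of its gene span on GRCm38. CUT&RUN releases the DNA around an antibody-bound protein in permeabilised cells, and here mapped the proteasome activator PSME3 and H3K4me3, a histone mark of active promoters, in C2C12 cells, an established mouse myoblast line. Of the 21 libraries in the series, 14 were used and the 7 IgG libraries were not analysed here. Cycling myoblasts, kept in medium with 20% FBS and frozen without fixation, gave 3 biological replicates for each antibody. Day 2 cells had spent 48 h in 2% horse serum to differentiate and gave 1 library for each antibody in each of 4 preparations. These were frozen native, frozen crosslinked, then fresh native and fresh crosslinked, where crosslinked means treated with 0.1% formaldehyde and native means unfixed, and day 2 values are given in that order. Stage and serum cannot be told apart in any of the 4 preparations, and since only frozen native matches the cycling cells in handling, handling cannot be told apart from them in the other 3. The authors also deposited a pooled peak list of the cycling replicates for each antibody, which has no error of its own.

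Immediate early genes are transcribed within minutes of growth factor stimulation, without new protein synthesis, when ERK signalling and serum response factor act on promoters that are already accessible. Fos and Jun proteins pair through leucine zippers to form AP-1, which drives genes of proliferation and is known to restrain muscle differentiation. In myoblast culture, serum withdrawal is the usual trigger for cell cycle exit and fusion.

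The promoters of Fos and Jun are shown because these genes had PSME3 peaks in more than 1 cycling replicate, that of Junb because its pooled PSME3 peak covered all 250 bases, and that of Atf3 because its H3K4me3 peak was narrower at day 2. The 250 bases before the start site were taken from RefSeq, build GRCm38.p6, which gave an entry for 7 of the 10 genes and none for Fosl1, Egr1 and Ier2. Capitals mark matches to searched motifs, listed after the sequences. The windows are chr12:85473640-85473889 on the plus strand for Fos, and on the minus strand chr4:95052223-95052472 for Jun, chr8:84978749-84978998 for Junb and chr1:191183334-191183583 for Atf3.
Fos: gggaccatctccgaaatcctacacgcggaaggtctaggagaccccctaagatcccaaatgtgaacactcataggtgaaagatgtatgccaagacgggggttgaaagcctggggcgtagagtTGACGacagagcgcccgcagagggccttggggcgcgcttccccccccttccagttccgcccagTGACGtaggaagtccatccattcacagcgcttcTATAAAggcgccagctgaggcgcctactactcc
Jun: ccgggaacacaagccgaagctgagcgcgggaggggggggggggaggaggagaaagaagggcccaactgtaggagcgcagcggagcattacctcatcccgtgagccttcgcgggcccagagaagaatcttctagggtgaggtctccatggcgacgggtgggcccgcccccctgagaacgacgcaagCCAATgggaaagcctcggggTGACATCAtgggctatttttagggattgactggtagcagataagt
Junb: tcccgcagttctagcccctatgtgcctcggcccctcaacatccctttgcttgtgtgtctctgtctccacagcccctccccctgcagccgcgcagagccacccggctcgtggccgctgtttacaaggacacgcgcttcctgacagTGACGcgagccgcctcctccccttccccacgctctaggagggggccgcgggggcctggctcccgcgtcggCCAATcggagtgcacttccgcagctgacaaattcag
Atf3: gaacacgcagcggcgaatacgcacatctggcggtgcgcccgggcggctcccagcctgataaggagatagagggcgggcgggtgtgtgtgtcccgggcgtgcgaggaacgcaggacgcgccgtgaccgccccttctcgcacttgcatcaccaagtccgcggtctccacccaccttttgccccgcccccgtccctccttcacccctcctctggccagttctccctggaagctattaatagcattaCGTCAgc
The motifs were searched on both strands. They were TGACG, the core of the cyclic AMP response element, the full element TGACGTCA that contains it, the AP-1 site TGAGTCA, its variant TGACATCA, the TATA box TATAAA, the EGR site GCGGGGGCG, the CCAAT box CCAAT and the serum response factor site known as the CArG box.

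TGACG stood at -129 to -125 and at -66 to -62 bp from the Fos start site, with TATAAA at -33 to -28 bp. It also stood at -106 to -102 bp in Junb and at -60 to -56 bp in Fosb, and on the opposite strand at -7 to -3 bp in Atf3, so that 4 of the 7 promoters held it. Of 32851 mouse promoters of the same length, 17.8% held TGACG and 12.4% held TATAAA. Jun held TGACATCA at -45 to -38 bp, a sequence found in 2.93% of all promoters, and CCAAT at -65 to -61 bp. Junb held CCAAT at -36 to -32 bp, which 33.8% of all promoters carry. GCGGGGGCG was found in Fosb at -50 to -42 bp and in Fosl2 at -79 to -71 bp, against 2.57% of all promoters. TGACGTCA, TGAGTCA and the CArG box, carried by 1.55%, 4.46% and 1.47% of all promoters, had no match in these 7 windows, and the Jund window matched none of the motifs searched. Bases further upstream were not searched, nor were Fosl1, Egr1 and Ier2, so a serum response factor site there would be missed. A match here describes letters only.

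H3K4me3 marked all 10 genes in every list, in 3 of 3 cycling replicates, in the pooled list and in all 4 day 2 preparations. Of all genes, 33.5%, 38.7% and 34.1% had a peak in cycling replicates 1, 2 and 3, 35.9% in the pooled list, and 31.7%, 32.6%, 29.9% and 32.4% in the day 2 lists, while 28.9% of all genes, or 53.2% of protein-coding genes, had one in all 7 libraries. The peaks at the immediate early genes were wide. In each of the 7 libraries, the widest peak spanned at least 5000 bp at Fosl2, Jun, Junb, Egr1 and Ier2, 5 of the 10 genes, against 2.71% of the 14431 genes with a peak in all 7. None of the 10 reached 7500 bp in every library, where the share of all such genes was 0.485%. The number of reads behind a peak is not in the lists, so the depth of each library is unknown and peak widths were compared between libraries as deposited.

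**Figure D1:**
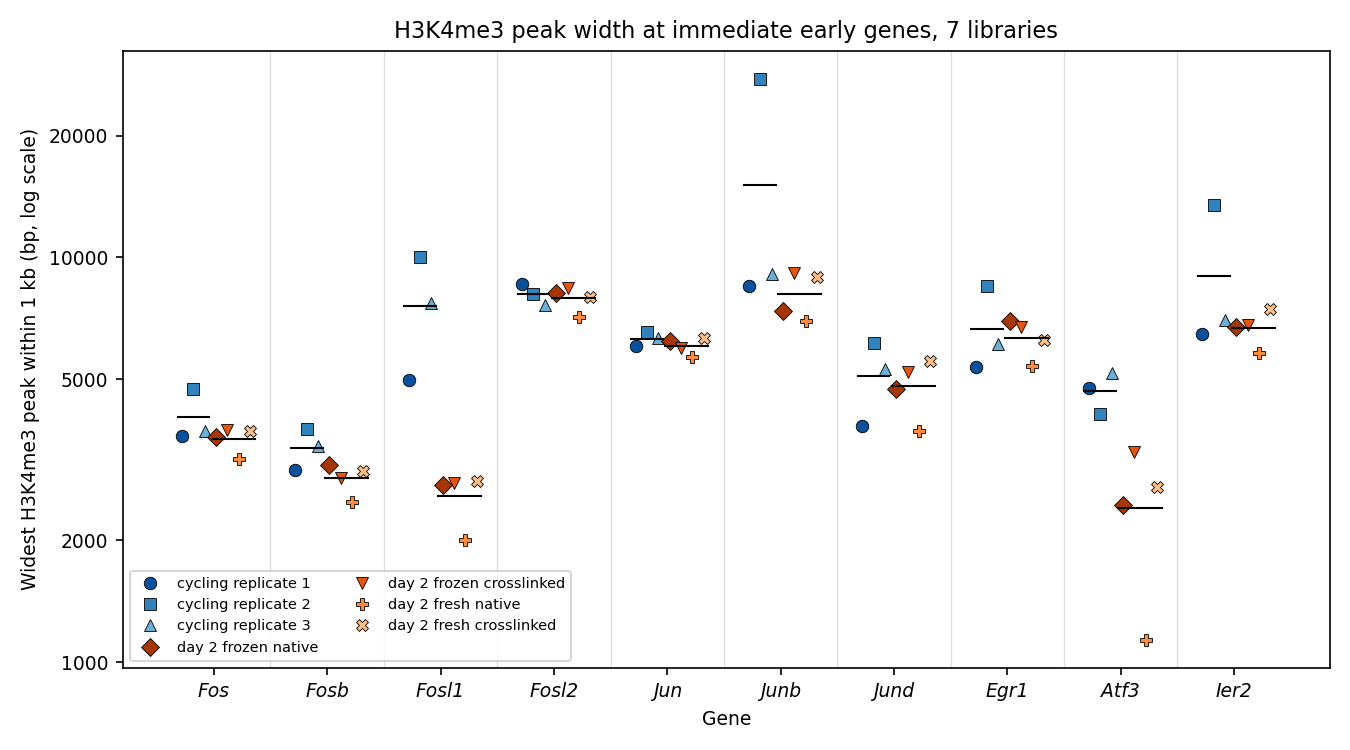
Width in bp (log axis) of the widest H3K4me3 peak within 1 kb of each gene. Each point is 1 library, blue for the 3 cycling replicates and orange for the 4 day 2 preparations, and the lines are the means of each stage. At Fosl1 and Atf3 all cycling points lie above all day 2 points, whereas at the other 8 genes the stages overlap.

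The libraries themselves differed. For H3K4me3, the cycling replicates comprised 18077, 40999 and 19365 peaks whose median widths were 1781, 662 and 1784 bp, so that replicate 2 stood apart from the other cycling lists with more and narrower peaks. The day 2 lists held between 14372 peaks (fresh native) and 20245 (frozen crosslinked), with median widths from 1348 to 1844 bp. The stage labels were checked against muscle genes. Myog, Mymk, Ckm, Myh3 and Actc1, markers of differentiating muscle, had an H3K4me3 peak in all 4 day 2 libraries and in none of the cycling libraries, except for a 629 bp peak at Mymk in cycling replicate 2. The myoblast markers Myod1, Myf5, Des and Cdh15 had a peak in all 7. Of 8 markers of other cell types, Ptprc, Cdh5, Adipoq and Alb had a peak in none of the libraries, whereas Cd68 and Sox2 had one in 6, Pecam1 in 3 and Neurod1 in 2. Cd68 (4012 ± 1201 bp in 3 cycling and 1506 ± 1022 bp in 4 day 2 libraries, SD) and Sox2 (1289 ± 229 and 499 ± 341 bp) were narrower at day 2 without overlap. These 2 of the 8 stand against 35.3% of the 20262 genes with a peak in at least 1 library. Both were without a peak in the fresh native library, entered as a width of 0. The part of other cell types in the widths that follow was not tested.

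To ask whether the mark at these genes differed between serum-fed cycling cells and day 2 cells, the width of the widest peak was compared between the 3 cycling and 4 day 2 libraries. Fosl1 and Atf3 were narrower at day 2 in every library, and none of the 10 genes was wider. The other 8 genes overlapped between the stages. These 2 of 10 genes stand against a background of 40.6% of all genes with a peak in all 7 libraries being narrower at day 2, and 0.942% wider, so narrowing was common across the genome and the count of 2 is not above that background. The median of log2 (mean day 2 width / mean cycling width) was -0.22 over the 10 genes and -0.30 over all 14431. Cycling replicate 2 weighed on these means. Without it, day 2 minus cycling went from -6975 to -698 bp at Junb, from -2270 to -27 bp at Ier2, from -292 to 230 bp at Jund and from -324 to 596 bp at Egr1. Atf3 alone went the other way, from -2285 to -2572 bp. The medians without replicate 2 are not given here. Among the 5004 genes with a mean cycling width of at least that of Fosb, the narrowest of the 10, 44.9% were narrower and the median was -0.30.

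The count moved with the libraries compared. The frozen native library alone, the only day 2 preparation handled as the cycling cells were, lay below all 3 cycling replicates at 4 of the 10 genes (Fos, Fosl1, Junb and Atf3), against 65.4% of all genes with a peak in all 7 libraries. Both native day 2 libraries together, a comparison added after the data were seen, gave the same 4 genes, against 64.5%. All 4 day 2 libraries lay below the pooled cycling list at 9 genes, Egr1 being the exception, against 83.6%.

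FOSL1, also called FRA-1, is a Fos family partner that lacks the strong activation domain of FOS. The widest Fosl1 peak (gene ID 14283, chr19:5447698-5455938) measured 4979, 10037 and 7730 bp in cycling replicates 1, 2 and 3. At day 2 it measured 2731 bp in the frozen native, 2765 bp in the frozen crosslinked, 1998 bp in the fresh native and 2795 bp in the fresh crosslinked library. Every day 2 peak was narrower than every cycling peak. Each library pools many cells, so a narrower domain in every cell and a change in the mix of cells cannot be told apart. The mean fell from 7582 ± 2532 bp (SD, n = 3) to 2572 ± 384 bp (SD, n = 4), a 2.95-fold difference, with p = 0.0571 by a two-sided exact permutation test, the smallest p that 3 against 4 libraries allow. After Benjamini-Hochberg adjustment over the 20262 genes with a peak in at least 1 library, the adjusted p of this exact permutation test was 0.157, also the smallest reached, so no gene passes 0.05 in this design. Fosl1 lay at the 1.05 percentile of log2 width change among the 14431 genes.

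The narrowing at Fosl1 was seen at both edges of the peak. The cycling peaks began between -3859 and -652 bp from the lower-coordinate end of the gene and ended between 4326 and 6177 bp, whereas the day 2 peaks began between -361 and -259 bp and ended between 1738 and 2504 bp. A separate H3K4me3 peak at the other end of the gene, which overlaps the neighbouring gene Ccdc85b, measured 2976, 7643 and 2718 bp in cycling replicates 1, 2 and 3. It measured 2316, 2656, 1815 and 2540 bp in the 4 day 2 libraries. Its stages were only just apart, with 2718 bp in cycling replicate 3 and 2656 bp in the frozen crosslinked library. In replicate 2 it also overlapped the gene Fibp. In the pooled cycling list the 2 peaks were joined into a single region of 18250 bp.

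ATF3 is a stress- and serum-induced bZIP factor that pairs with Jun proteins. Its widest peak (gene ID 11910, chr1:191170296-191183333) measured 4766, 4107 and 5173 bp in cycling replicates 1, 2 and 3. It measured 2438, 3310, 1135 and 2706 bp in the 4 day 2 libraries. The day 2 values again lay below all cycling values, and the fresh native peak was the narrowest of all. The mean was 4682 ± 538 bp (SD, n = 3) in cycling cells and 2397 ± 917 bp (SD, n = 4) at day 2, a 1.95-fold difference (two-sided exact permutation test, p = 0.0571, adjusted p = 0.157). Atf3 lay at the 4.96 percentile of log2 width change. When the bases of the 1 kb window covered by peaks were counted in place of peak width, the stages overlapped at Atf3 (two-sided exact permutation test, p = 0.114).

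**Figure D2:**
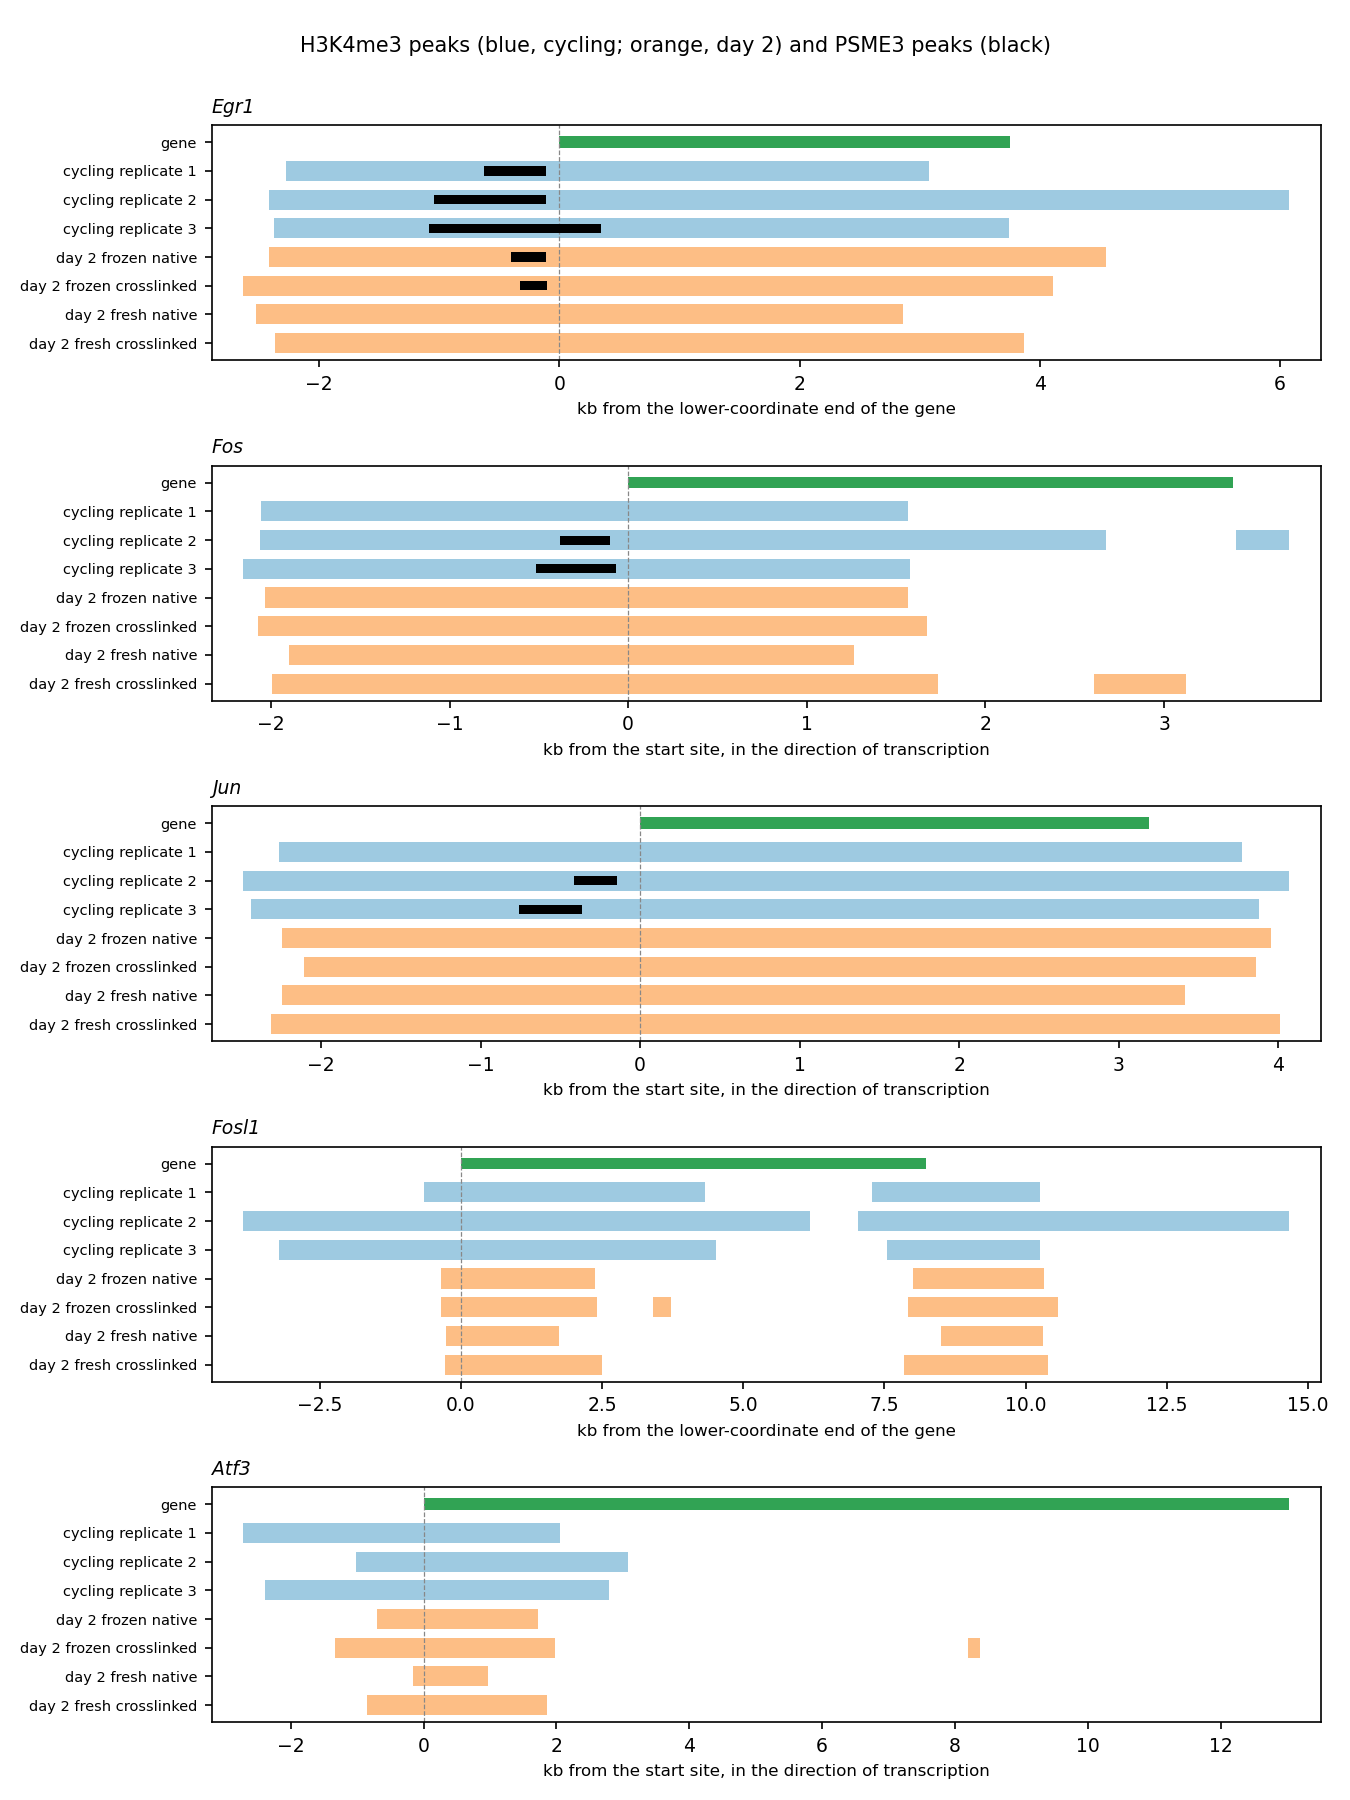
Peaks at Egr1, Fos, Jun, Fosl1 and Atf3 in the 7 H3K4me3 libraries (blue, cycling; orange, day 2) with the PSME3 peaks of the same replicate or preparation in black and the gene in green. The horizontal axes give the distance in kb from the start site, or from the lower-coordinate end for Egr1 and Fosl1. PSME3 peaks lie inside the H3K4me3 peaks, and the H3K4me3 peaks of Fosl1 and Atf3 are shorter in all 4 day 2 libraries.

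FOS, the founding AP-1 subunit, is among the most rapidly induced transcripts after serum. The Fos peak (gene ID 14281, chr12:85473890-85477274) measured 3627, 4734 and 3733 bp in cycling replicates 1, 2 and 3, and 3603, 3745, 3167 and 3727 bp in the 4 day 2 libraries. The stages overlapped, with 4031 ± 611 bp (SD, n = 3) in cycling cells and 3560 ± 270 bp (SD, n = 4) at day 2 (two-sided exact permutation test, p = 0.286). Its left edge varied little, from -2156 to -1901 bp from the start site over the 7 libraries.

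FOSB has a full-length form and a truncated form known from long-lasting stimulation. The Fosb peak (gene ID 14282, chr7:19302696-19310118) measured 2976, 3770 and 3415 bp in the cycling replicates and 3061, 2846, 2493 and 2968 bp in the 4 day 2 libraries. The stages overlapped through cycling replicate 1 and the frozen native library (two-sided exact permutation test, p = 0.114). A smaller H3K4me3 peak beyond the other end of Fosb, at the gene Gm26802, was listed in every library, with 1358, 1167 and 765 bp in the cycling replicates and 380, 736, 189 and 647 bp at day 2. It reached into the 1 kb window in cycling replicates 1 and 2 only. When all peaks that touched the window were summed, the stages no longer overlapped at Fosb, where day 2 minus cycling was -1465 bp (two-sided exact permutation test, p = 0.0571). Nor did they overlap when the bases of the window covered by peaks were counted, with -733 bp (two-sided exact permutation test, p = 0.0571).

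FOSL2, or FRA-2, is a Fos family member that persists longer after stimulation than FOS. The Fosl2 peak (gene ID 14284, chr5:32136472-32157840) measured 8587, 8138 and 7633 bp in the cycling replicates and 8164, 8409, 7138 and 8002 bp in the 4 day 2 libraries. Its 2 means were the closest of the 10 genes, 8119 ± 477 bp (SD, n = 3) and 7928 ± 553 bp (SD, n = 4), a 1.02-fold difference (two-sided exact permutation test, p = 0.686). In each library it ranked at or above the 99.0 percentile of peak width.

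JUN is the founding member of the Jun family, whose proteins are the partners that Fos proteins need to bind DNA. The Jun peak (gene ID 16476, chr4:95049036-95052222) measured 6038, 6558 and 6313 bp in the cycling replicates and 6199, 5964, 5658 and 6327 bp in the 4 day 2 libraries. The means were 6303 ± 260 bp (SD, n = 3) and 6037 ± 294 bp (SD, n = 4), and the stages overlapped (two-sided exact permutation test, p = 0.286). The peak covered the whole gene, and the long noncoding gene Junos lies within the same window, so the peak cannot be assigned to either.

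JUNB is a Jun protein that can oppose JUN at AP-1 sites. The Junb peak (gene ID 16477, chr8:84976909-84978748) measured 8506, 27631 and 9094 bp in cycling replicates 1, 2 and 3. At day 2 it measured 7366, 9141, 6950 and 8951 bp in the 4 libraries. Replicate 2 was far wider than the other 2 cycling libraries, and its peak also overlapped Hook2, Prdx2 and Rnaseh2a, whereas those of the other 6 libraries overlapped Prdx2. The means of 15077 ± 10876 bp (SD, n = 3) and 8102 ± 1106 bp (SD, n = 4) gave a day 2 minus cycling difference of -6975 bp, with overlapping stages (two-sided exact permutation test, p = 0.286). Without cycling replicate 2, the difference was -698 bp.

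JUND is the Jun protein that is expressed most steadily and is tied to quiescence. The Jund peak (gene ID 16478, chr8:70697739-70700616) measured 3833, 6138 and 5308 bp in the cycling replicates and 4742, 5200, 3725 and 5535 bp in the 4 day 2 libraries. The stages overlapped (two-sided exact permutation test, p = 0.686). In 5 of the 7 libraries the peak began 120 to 394 bp past the annotated start site, so that the 250 upstream bases of Jund were outside H3K4me3 there. Its peaks overlapped the neighbouring gene Iqcn.

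EGR1 is a zinc finger factor induced by serum alongside FOS. The Egr1 peak (gene ID 13653, chr18:34861207-34864956) measured 5354, 8496 and 6119 bp in the cycling replicates and 6961, 6742, 5386 and 6241 bp in the 4 day 2 libraries. Replicate 2 was the widest and the stages overlapped (two-sided exact permutation test, p = 0.800). Without cycling replicate 2, Egr1 was 596 bp wider at day 2.

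IER2 is a small nuclear protein named for its immediate early response. The Ier2 peak (gene ID 15936, chr8:84661331-84662852) measured 6455, 13460 and 7008 bp in the cycling replicates and 6715, 6815, 5819 and 7470 bp in the 4 day 2 libraries. The stages overlapped (two-sided exact permutation test, p = 0.457). Day 2 minus cycling was -2270 bp, and this value rested on replicate 2, without which it was -27 bp. Within the separate lists, Ier2 had the strongest H3K4me3 fold enrichment of the 10 genes, between the 95.5 and 99.9 percentile of all peaks in its list. Atf3 or Jund was the lowest in each of the 7 lists, between the 40.0 and 76.7 percentile.

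**Figure D3:**
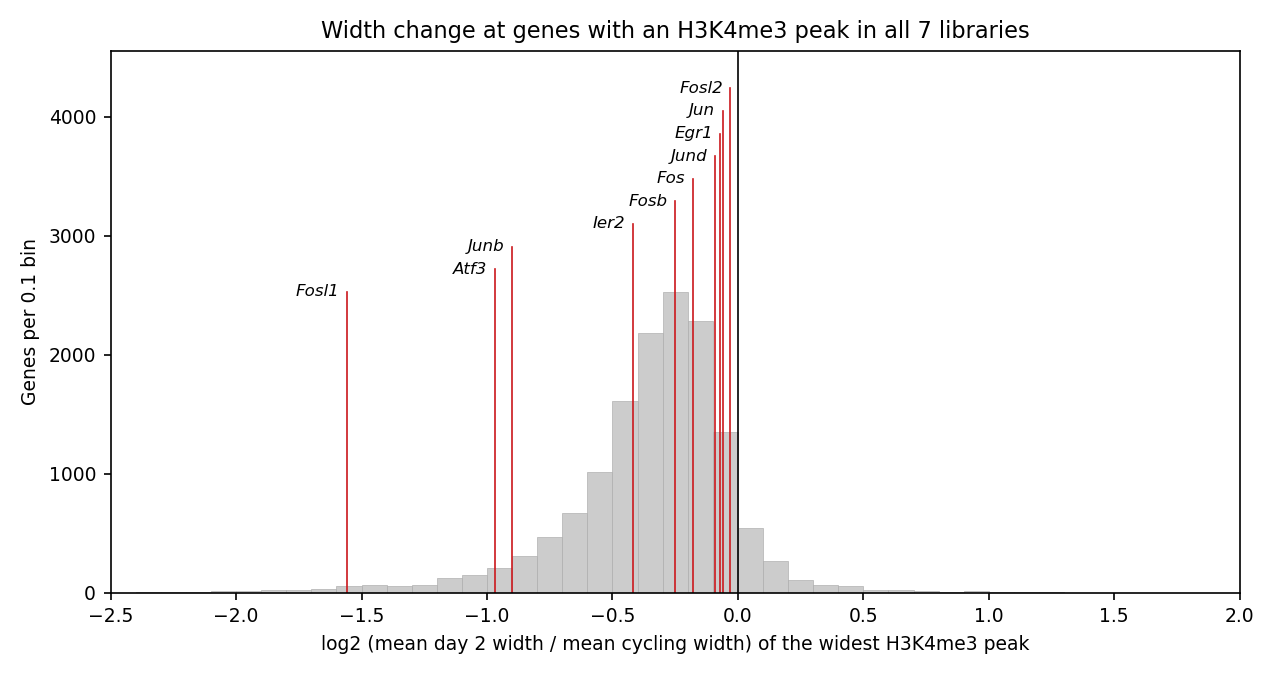
Distribution of log2 (mean day 2 width / mean cycling width) over the 14431 genes with an H3K4me3 peak in all 7 libraries (grey, genes per bin), with the 10 immediate early genes as red lines of arbitrary height. Fosl1, Atf3 and Junb lie in the left tail, Fosl1 at the 1.05 and Atf3 at the 4.96 percentile, and the rest lie at the 31.5 percentile (Ier2) or above. The place of Junb rests on cycling replicate 2, without which its difference is -698 bp in place of -6975 bp.

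Ordered by mean cycling width, the genes ran Junb, Ier2, Fosl2, Fosl1, Egr1, Jun, Jund, Atf3, Fos and Fosb, and each of the 9 adjacent pairs overlapped in the range of its 3 replicates. At day 2 the order was Junb, Fosl2, Ier2, Egr1, Jun, Jund, Fos, Fosb, Fosl1 and Atf3. The ranges of Jun (5658 to 6327 bp) and Jund (3725 to 5535 bp) did not overlap, and neither did those of Fos (3167 to 3745 bp) and Fosb (2493 to 3061 bp). The other adjacent pairs did. By mean width, Fosl1 thus stood among the 4 widest in cycling cells and next to last at day 2. In cycling replicate 1 its peak of 4979 bp was narrower than those of Egr1 (5354 bp) and Jun (6038 bp). Measured as the percentile of width among all peaks of the same list, which itself depends on how many narrow peaks a list holds, Fosl1 and Atf3 were again lower at day 2 without overlap, against 16.3% of all genes with a peak in all 7 libraries, and none of the 10 was higher, against 1.39%. When cycling replicate 2 was left out of the percentiles, also added after the data were seen, Fos, Jun, Egr1 and Ier2 were higher at day 2, 4 of the 10 genes against 8.19%.

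To compare the sites of PSME3 itself, the same windows were searched in the PSME3 lists. In cycling cells, replicate 1 had a PSME3 peak at 1 of the 10 genes (Egr1), replicate 2 at 3 (Fos, Jun and Egr1) and replicate 3 at 6 (Fos, Fosb, Fosl2, Jun, Junb and Egr1). The shares of all genes in these lists were 2.51%, 1.93% and 7.08%. The pooled list had a peak at 7 genes, with Atf3 in addition, against 11.8% of all genes. No PSME3 peak was listed at Fosl1, Jund or Ier2. The replicate lists held 1200, 776 and 3070 PSME3 peaks, and Fosb, Fosl2 and Junb had a peak in replicate 3 alone. Of the 10 genes, 6 had a peak in at least 1 cycling replicate, against 8.59% of all genes, and 3 did without replicate 3, against 3.70%.

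In all, 3 genes, Fos, Jun and Egr1, had a PSME3 peak in at least 2 cycling replicates, against 2.26% of all genes. Both Jun peaks lay near the threshold, with a -log10 q of 1.40 and 1.33, and with a q of at most 0.01 only Fos and Egr1 remained, 2 of the 10 against 1.06%. Egr1 had one in all 3, against 0.667%. The shares were higher among genes marked by H3K4me3. Of the genes with a pooled H3K4me3 peak, 32.3% had a pooled PSME3 peak. Among the 5806 genes with a pooled H3K4me3 peak at least as wide as the narrowest of the 10, 46.7% had a pooled PSME3 peak, 11.3% had one in at least 2 cycling replicates and 3.43% had one in all 3.

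**Figure D4:**
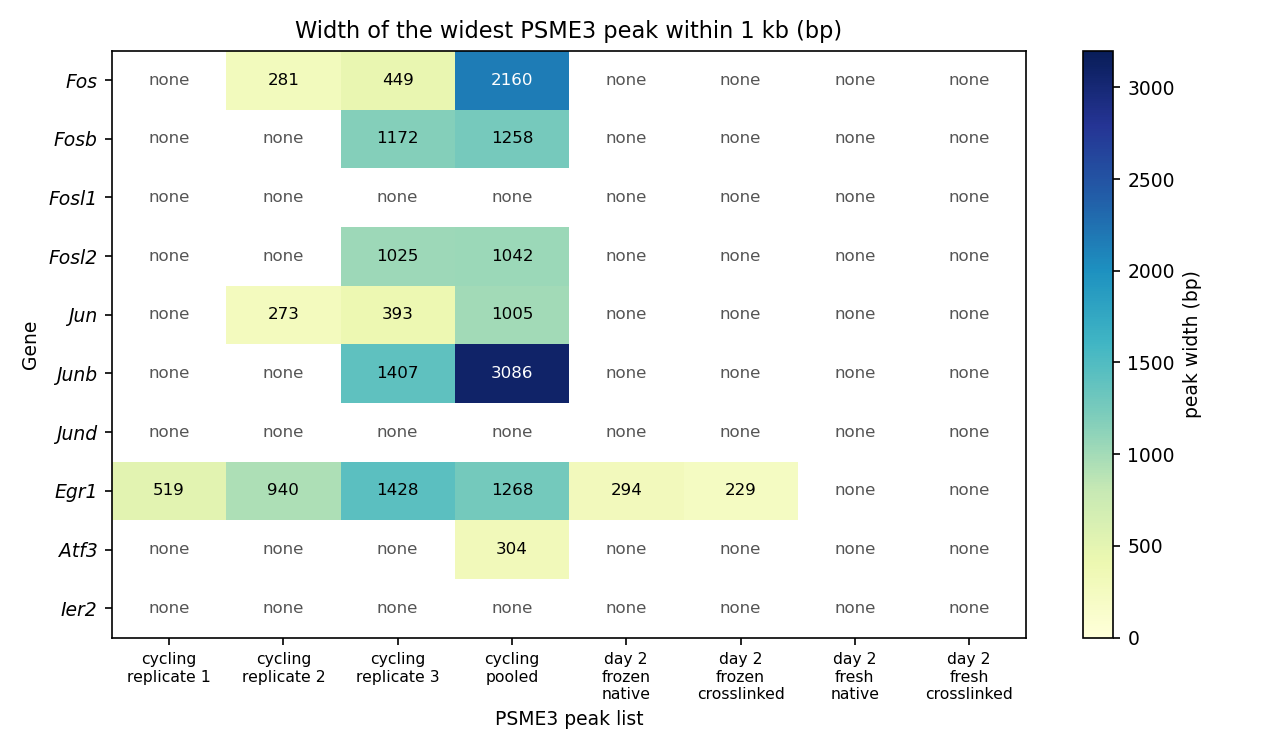
Width in bp of the widest PSME3 peak within 1 kb of each gene (rows) in each PSME3 list (columns), with colour for width and "none" where no peak was listed. Egr1 is the only gene with a peak in all 3 cycling replicates and the only gene of the 10 with a peak at day 2, in the frozen native (294 bp) and frozen crosslinked (229 bp) lists.

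At Egr1 the PSME3 peak measured 519, 940 and 1428 bp in cycling replicates 1, 2 and 3, with fold enrichments of 5.23, 4.02 and 4.98. It measured 294 bp in the frozen native and 229 bp in the frozen crosslinked day 2 library, with fold enrichments of 5.05 and 5.47, and no peak was listed in the fresh libraries. Both day 2 peaks were narrower than every cycling peak, and the share of all genes with this pattern is not given here. The peaks lay next to the lower-coordinate end of the gene. Measured from that end, they ended between -107 and -103 bp in 4 of these 5 libraries and at 343 bp, inside the gene, in replicate 3. The frozen native and frozen crosslinked PSME3 lists held 186 and 77 peaks in all, with peaks at 0.495% and 0.192% of genes, and the fresh native and fresh crosslinked lists held 23 and 18, with peaks at 0.0300% and 0.0220%. Across the genome, 58 genes, or 0.116%, had a PSME3 peak in all 3 cycling replicates and in both frozen day 2 lists, and for 45 of them, or 0.0901%, the fresh lists held none. With so few fresh peaks, the missing peak at Egr1 cannot be told apart from the shortness of these lists.

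At Fos, PSME3 lay just upstream of the start site. The peak measured 281 bp in replicate 2, from -383 to -103 bp, and 449 bp in replicate 3, from -516 to -68 bp, and none was listed in replicate 1. In the pooled list it spanned 2160 bp, from -1671 to 488 bp. The replicate peaks covered 148 and 183 of the 250 upstream bases printed above and included the TGACG at -129 bp but not that at -66 bp, whereas the pooled peak covered both.

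At Jun the peak measured 273 bp in replicate 2, from -417 to -145 bp, and 393 bp in replicate 3, from -759 to -367 bp, so the 2 peaks shared part of their span. Neither reached the TGACATCA at -45 bp, and the pooled peak of 1005 bp, from -614 to 390 bp, covered it. Junb had 3 PSME3 peaks in replicate 3, of 276, 412 and 1407 bp, and pooled peaks of 383 and 3086 bp. In replicates 1 and 2 a PSME3 peak of 572 and of 434 bp lay 1101 and 1116 bp from the gene, just outside the 1 kb window, and within 3 kb Junb therefore had a peak in all 3 replicates.

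Fosb had a PSME3 peak of 1172 bp in replicate 3, inside the gene at 1018 to 2189 bp past the start site. Its pooled peaks measured 1258 bp at the same place and 469 bp upstream of the start site. Fosl2 had a peak of 1025 bp in replicate 3, from -1339 to -315 bp, and of 1042 bp in the pooled list, so its 250 upstream bases were free of PSME3. Atf3 had a peak only in the pooled list, of 304 bp from -403 to -100 bp. Near Fosl1, the nearest PSME3 peak, of 308 bp, lay 2532 bp away in replicate 1.

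The PSME3 peaks of these genes were held within the mark. All 14 PSME3 peaks found in the separate libraries, and all 9 of the pooled list, lay wholly inside an H3K4me3 peak of the same replicate, preparation or pooled list. For all PSME3 peaks, only an overlap of at least 1 bp with the matching H3K4me3 list was counted, a looser measure. That share was 78.2%, 95.5% and 94.8% in cycling replicates 1, 2 and 3, and 93.6% in the pooled list. It was 94.6% in the frozen native and 83.1% in the frozen crosslinked list. The fresh native and fresh crosslinked lists, at 65.2% and 94.4%, had no PSME3 peak at these genes. At the 6 genes with a PSME3 peak in at least 1 cycling replicate, the widest H3K4me3 peak exceeded the widest PSME3 peak and the 3 libraries of each antibody did not overlap, as for 96.1% of the 4292 genes with a PSME3 peak in at least 1 replicate. At Egr1, the gene with the broadest PSME3 coverage over the replicates, the means were 6656 ± 1638 bp for H3K4me3 and 962 ± 455 bp for PSME3 (SD, n = 3 each), with p = 0.1 by the two-sided exact permutation test, as low as 3 against 3 libraries can reach. The other 5 of these genes (Fos, Fosb, Fosl2, Jun and Junb) gave the same p of 0.1 by this exact permutation test, with a library without a peak entered as a width of 0, so part of each difference is the absence of a peak. As width percentiles within each list, the antibodies overlapped at Egr1 and Fosb and did not at 4 of the 6 genes, against 69.9% of the 4292 genes without overlap. Fosl1, Jund, Atf3 and Ier2 had no PSME3 peak in a cycling replicate, so a PSME3 width of 0 fixed the outcome and no comparison is read from them.

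Other genes of the response were read from lists of known members. Of 41 further immediate early genes, 40 had an H3K4me3 peak in all 7 libraries, the exception being Egr4 with none in any. Of the 41, 17 were narrower at day 2 without overlap and 0 were wider. That is near the 40.6% narrower among all genes with a peak in all 7 libraries. The median log2 width change of the 40 was -0.28. By the mean over all 7 libraries, which differs from the order within either stage, the widest peak belonged to Dusp4, a phosphatase that switches off MAP kinases, at 11752 ± 560 bp (SD, n = 3) in cycling cells and 7345 ± 1073 bp (SD, n = 4) at day 2. Next came Ccn1, a secreted matrix protein also called CYR61 (8831 ± 249 and 7072 ± 724 bp), and Mcl1, a survival factor (8525 ± 2662 and 6314 ± 791 bp). Stages did not overlap at Dusp4 and Ccn1 and did at Mcl1. PSME3 had a pooled peak at 20 of the 41 and a peak in at least 2 cycling replicates at 3, namely Klf10, Trib1 and Per1. Over all genes the shares were 11.8% and 2.26%, and over the 5806 genes with a wide pooled H3K4me3 peak 46.7% and 11.3%.

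Among 13 upstream kinases and transcription factors, all had H3K4me3 in all 7 libraries and 2 were narrower at day 2, against 40.6% of all genes with a peak in all 7. Elk3, a ternary complex factor that partners serum response factor, was narrower at day 2 in each library, with 6319 ± 251 bp (SD, n = 3) in cycling cells and 3153 ± 118 bp (SD, n = 4) at day 2. Srf, which encodes serum response factor itself, measured 4975 ± 1043 and 5418 ± 604 bp, and Elk4 4893 ± 243 and 4592 ± 510 bp, both with overlap. PSME3 had a pooled peak at 7 of the 13, against 32.3% of all genes with a pooled H3K4me3 peak, and a peak in at least 2 cycling replicates at 2, Srf and Creb1, against 6.27% of those genes. Like Egr1, Srf had a PSME3 peak in both frozen day 2 lists, of 245 bp in the frozen native and 188 bp in the frozen crosslinked preparation. Its cycling PSME3 peaks measured 281 bp in replicate 1 and 725 bp in replicate 3.

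Of 12 other bZIP genes whose proteins can pair with Fos or Jun, 8 had H3K4me3 in all 7 libraries, 4 were narrower at day 2 and 0 wider, against 35.3% narrower of the 20262 genes with a peak in at least 1 library. By the mean over all 7 libraries, though not within each stage, the widest were Jdp2 (6965 ± 532 bp in 3 cycling and 5772 ± 1016 bp in 4 day 2 libraries), Atf4 (7294 ± 3957 and 4475 ± 340 bp) and Maf (4133 ± 720 and 5701 ± 1089 bp), each with overlapping stages. PSME3 had a pooled peak at 5 of these 12 genes, against 32.3% of genes with a pooled H3K4me3 peak and 11.8% of all genes, and none in more than 1 replicate. Of the protein-coding genes outside these lists, those with H3K4me3 widths most like Fos over the 7 libraries were Dap3, Ash1l and Oga, with a mean absolute log2 difference of 0.0216, 0.0216 and 0.0366.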

How the data were processed

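CUT&RUN with antibodies to PSME3 and H3K4me3 was analysed from 14 libraries of C2C12 cells. Per the submitters' processing notes and the paper's methods, the authors used Trim Galore for trimming, Bowtie2 for alignment to mm10 (GRCm38) and MACS2 for peak calling, per library and once on the pooled cycling replicates for each antibody. Versions, options and the control library are not given in the sources used here. The 16 deposited lists have no header and give, for each peak, a position, a score that is 10 times the -log10 q cut to a whole number, a fold enrichment (the ratio over the local background of MACS2) and the -log10 of the p-value and of the q-value. All deposited peaks have a q under 0.1. The lists hold no reads, so the depth is unknown, and number and width of listed peaks can depend on it. Each file belongs to a single library or pool, and 0 columns of unassigned samples were found.

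Genes and spans were taken from the RefSeq table of GRCm38.p6, which gives no strand, and start sites from its promoter table. Older symbols (Cyr61, Ctgf, Mkl1, Mkl2) were matched through synonyms. The 10 genes, the gene lists and the tests were chosen with earlier results of these data known. All 10 genes were named in full, and from each other list the 3 with the widest mean H3K4me3 peak over 7 libraries and those with a PSME3 peak in at least 2 cycling replicates. The 3 protein-coding genes with H3K4me3 widths most like those of Fos were also named, and the same for Jun is not reported here.

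For each gene and list the widest peak within 1 kb of the gene span was taken, and 0 where there was none. Stages were called different where the 3 cycling and 4 day 2 libraries did not overlap. The mean widths were tested by a two-sided exact permutation test with Benjamini-Hochberg adjustment over 20262 genes, none of which can reach a p under 0.05. The antibodies were compared by an exact permutation test of 3 against 3 libraries. Overlap required 1 bp. The 4 day 2 libraries are different preparations, so their spread includes handling. PSME3 and H3K4me3 libraries share replicate numbers. As a check of pairing, each library's log2 share of peaks per autosome (19 autosomes) was centred on its antibody's replicates and gave a Pearson r of 0.54, 0.55 and 0.28 between same-numbered libraries. Replicates 1 and 3 were not told apart by this measure, with 0.52 between PSME3 replicate 1 and H3K4me3 replicate 3. Alternatives were a q of at most 0.05 or 0.01, the gene span alone or 3 kb, summed or covered width, peaks merged within 500 bp, width percentile, the pooled list, each library left out, the frozen native library alone, an overlap of 50%, the replicate block and protein-coding genes as background. Calculations used Python 3.11.15, numpy 2.4.6, pandas 2.3.3 and scipy 1.17.1, and figures matplotlib 3.10.9. The functions were tested on simulated data.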

Additional observations from a re-analysis of the deposited data

Results flagged for a closer look

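The widest H3K4me3 peak at Fosl1 measured 1998 bp in the day 2 fresh native library, apart from the 3 other day 2 preparations at 2731 to 2795 bp. The gap was 0.920 of the range of the group. The H3K4me3 widths of 10 genes over the 4 day 2 libraries were examined for such gaps. The threshold used passes about 1 in 20 groups by chance if the 4 libraries are alike, but they are different preparations of day 2 cells. The fresh native library had the narrowest peak of the 4 at all 10 genes, and its list was also the shortest, with 14372 peaks. The share of all genes at which the fresh native library was the narrowest is not given here. Whether the same held across the genome was not tested. Without this library the day 2 minus cycling difference at Fosl1 was -4818 bp, in place of -5010 bp.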

How the results depend on the processing

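Fosl1 and Atf3 stayed narrower at day 2 when either q threshold, either other window, merged peaks, width percentiles or 1 library fewer was used, with 2 to 3 of the 10 genes called. For width percentiles the share was 16.3% of the genes with a peak in all 7 libraries, and for the other settings no such share is given. In covered bases Fosb and Fosl1 were called and Atf3 was not. The frozen native library alone gave 4 genes below all cycling replicates (Fos, Fosl1, Junb and Atf3, against 65.4%). This share and those that follow are of the genes with a peak in all 7 libraries. The native day 2 libraries alone, added after the data were seen, gave the same 4 (against 64.5%). Against the pooled cycling list, 9 genes were narrower (against 83.6%). Width percentiles without cycling replicate 2, also added, put 4 genes higher at day 2 (Fos, Jun, Egr1 and Ier2, against 8.19%).

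Small differences changed sign. As width percentiles, day 2 was above cycling by 0.28 points at Fosl2, 0.41 at Jun, 1.40 at Jund, 0.86 at Egr1 and 0.04 at Ier2. Without cycling replicate 2 these were 0.31, 0.62, 3.17, 1.59 and 0.47, with 2.51 at Fos, 0.11 at Fosb and 0.01 at Junb. Fosl2 was wider at day 2 by 328 bp in covered bases and by 45 bp with the frozen native library alone, and Egr1 by 305 bp with the latter. With 1 library left out in turn, day 2 minus cycling ran from -434 to 72 bp at Fosl2, from -922 to 230 bp at Jund and from -975 to 596 bp at Egr1. The cause was not tested.

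PSME3 calls depended on the threshold and the window. With a q of at most 0.01, replicates 2 and 3 had a peak at 2 and 5 genes (all genes 0.851% and 3.60%), Jun being lost in both, and 11 of 11 peaks lay inside H3K4me3. With the gene span alone, replicates 1, 2 and 3 had a peak at 0, 0 and 3 genes (all genes 1.85%, 1.44% and 5.82%), the pooled list at 4 (10.1%), the frozen native list at 0 (0.292%) and the frozen crosslinked list at 0 (0.128%), and 3 of 3 peaks lay inside H3K4me3. With 3 kb, replicate 1 had a peak at 3 (2.83%). Requiring at least 2 replicates left 3 genes of 6 (2.26%), and leaving out replicate 1, 2 or 3 gave 6 (7.66%), 6 (8.09%) and 3 (3.70%). With the replicate block, an exact sign-flip test on the pairing by number, H3K4me3 was wider than PSME3 at 10 genes, with p = 0.25, the smallest it allows. At 4 of the 10 the PSME3 width was 0 in all replicates, which fixed the sign. As width percentiles the count was 8, these 4 included, with the call lost at Egr1 and Fosb. Peak lists without reads leave the depth behind each width and each missing peak unknown.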
